A study of Mus musculus with 24 samples.

Results

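The RNA of the glucocorticoid receptor, of the related mineralocorticoid receptor and of 5 genes known to respond to them was followed in the nucleus accumbens of mice with nerve injury and viral Mef2c. The genes were Nr3c1, Nr3c2, Fkbp5, Sgk1, Tsc22d3, Zbtb16 and Pdk4, found in the count table by the symbol of their Ensembl identifier, 7 of 55401 identifiers. All 7 passed the filter on low counts, which kept 23738 genes for testing. None of the 7 passed the main test for a difference between groups, and most of their variation lay between libraries of one group.

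Corticosterone, the main glucocorticoid of mice, enters cells and binds both receptors. The mineralocorticoid receptor binds it with high affinity and is largely occupied at rest, while the glucocorticoid receptor fills as the hormone rises with stress or time of day. Bound receptors move into the nucleus and attach to glucocorticoid response elements, short inverted repeats in DNA, from which they raise some genes and lower others. In the accumbens, part of the ventral striatum that serves motivation and aversion, most neurons are GABAergic medium spiny neurons.

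Bulk mRNA was sequenced from 24 libraries of bilateral accumbens punches, 6 in each of 4 groups that combined a surgery with a vector. The surgery was the tibial form of spared nerve injury (SNI), which leaves mice with chronic neuropathic pain, done on the sciatic nerve of the left leg, or a sham operation without damage to the nerve. Both were done under isoflurane. The vector was AAV8-hSyn-Egfp (Gfp) or AAV8-hSyn-Mef2c-Egfp (Mef2c), injected into both accumbens. Sham Gfp mice thus had sham surgery and Egfp alone, Sham Mef2c mice sham surgery with Mef2c and Egfp, SNI Gfp mice the injury with Egfp alone, and SNI Mef2c mice the injury with Mef2c and Egfp. All groups carried an AAV8 vector and Egfp, and the hSyn promoter drives the vector's genes in neurons. The mice were C57BL/6J or DBA/2J, 8 to 9 weeks old, and the labels tie neither strain nor animal to a library, so each p-value rests on the spread from library to library. The labels state neither the time of day at collection nor a hormone level. The number after S in the labels' library names runs by group, and what it marks is not stated.

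Total counts lay between 25477019 and 36570108 per library. Mef2c, which the vector carries, lay between 139 and 212 CPM (read counts scaled to library size) in Sham Gfp and 133 and 221 CPM in SNI Gfp. It lay between 474 and 832 CPM in SNI Mef2c, above every Gfp library, but between 123 and 469 CPM in Sham Mef2c, where the range overlapped that of Sham Gfp. Libraries labelled Sham Mef2c are therefore named by their label. The dopamine receptor Drd2, a marker of medium spiny neurons, was present in all 24 libraries at 54.5 to 164 CPM. Slc17a7, the glutamate transporter of cortical neurons, ranged from 1.6 to 1170 CPM, with the 10 cortical markers highest in SNI Mef2c library 1 (mean 6.06 log2 CPM) and SNI Gfp library 4 (5.83 log2 CPM).

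Promoter sequences show where receptor sites could lie in these genes. RefSeq promoters (mouse build GRCm38.p6, 250 bases before to 50 after a start, read on the gene's strand) were found for 5 of the 7 genes, 12 promoters in all. They were searched on both strands for the unit AGAACA, which reads TGTTCT on the other strand, and for the full element, AGAACA followed by any 3 bases and TGTTCT. Each full element therefore also holds the unit on both strands. The full element was found in 1 of the 12, the fifth Sgk1 promoter, against 3 of 32851 mouse promoters (0.00913%). The unit was found in 4 of the 12, against 6233 of 32851 (19%). The following 4 promoters are shown because Sgk1 and Tsc22d3 hold matches near a start and because Fkbp5 and Pdk4 take part in the closest pairings described further on, with matches in capitals.
Sgk1 promoter 5, chr10:21993640-21993939, plus strand: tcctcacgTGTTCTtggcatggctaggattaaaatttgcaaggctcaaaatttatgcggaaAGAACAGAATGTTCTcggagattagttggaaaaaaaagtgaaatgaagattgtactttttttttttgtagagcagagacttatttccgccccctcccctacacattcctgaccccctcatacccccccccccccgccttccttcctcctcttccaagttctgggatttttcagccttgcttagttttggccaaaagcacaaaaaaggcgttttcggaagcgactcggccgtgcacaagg
Tsc22d3 promoter 2, chrX:140600473-140600772, minus strand: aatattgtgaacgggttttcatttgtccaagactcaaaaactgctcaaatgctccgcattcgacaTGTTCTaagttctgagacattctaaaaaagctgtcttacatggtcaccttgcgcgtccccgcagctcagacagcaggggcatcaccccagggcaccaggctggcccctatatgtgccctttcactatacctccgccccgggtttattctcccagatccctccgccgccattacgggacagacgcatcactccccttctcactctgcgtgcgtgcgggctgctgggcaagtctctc
Fkbp5 promoter 1, chr17:28486100-28486399, minus strand: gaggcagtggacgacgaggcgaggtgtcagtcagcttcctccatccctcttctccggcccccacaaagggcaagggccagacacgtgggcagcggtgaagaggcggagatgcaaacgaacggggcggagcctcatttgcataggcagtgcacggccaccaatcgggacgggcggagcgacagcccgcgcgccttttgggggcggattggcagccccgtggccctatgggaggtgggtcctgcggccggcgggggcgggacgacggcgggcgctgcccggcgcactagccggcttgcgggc
Pdk4 promoter 1, chr6:5496229-5496528, minus strand: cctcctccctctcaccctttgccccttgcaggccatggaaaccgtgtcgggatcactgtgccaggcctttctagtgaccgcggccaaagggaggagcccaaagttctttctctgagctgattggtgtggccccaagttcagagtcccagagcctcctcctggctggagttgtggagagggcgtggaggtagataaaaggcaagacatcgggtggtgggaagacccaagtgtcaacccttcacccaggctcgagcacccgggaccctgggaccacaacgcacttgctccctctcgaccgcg

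In the Sgk1 promoter the full element began 189 bases before the start, and a single TGTTCT began 242 bases before it. In the Tsc22d3 promoter 1 TGTTCT began 185 bases before the start. The other unit matches were in Sgk1 promoters 1 and 4, 195 and 13 bases before their starts. No match was found in the Fkbp5 and Pdk4 windows, which says only that these letters are not in those 300 bases. A match in a promoter is a description of its letters and not a measured site.

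Levels were compared between genes only per length, over all 24 libraries. Per kilobase of gene span, introns included, Pdk4 stood at 0.906 CPM (SD 0.123), Nr3c1 at 0.885 (SD 0.0532), Tsc22d3 at 0.602 (SD 0.162) and Sgk1 at 0.539 (SD 0.0746). Fkbp5 at 0.366 (SD 0.0745), Nr3c2 at 0.208 (SD 0.0266) and Zbtb16 at 0.0619 (SD 0.0191) were lower. The neighbours Pdk4 and Nr3c1, and likewise Tsc22d3 and Sgk1, lay within their spread. Per kilobase of exon the order was Sgk1 (12.9 CPM), Nr3c1 (12.5), Nr3c2 (11.1), Tsc22d3 (8.48), Fkbp5 (4.58), Pdk4 (3.34) and Zbtb16 (2.13). Counting included introns, so the order depends on which length divides the count, and Zbtb16 was lowest by either.

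Nr3c1 encodes the glucocorticoid receptor (chromosome 18, 39410545 to 39519421, minus strand, mm10). It ran from 89.9 to 105 CPM in Sham Gfp (median 96.6) and from 88.8 to 108 CPM in SNI Gfp (median 91.6). With the Mef2c vector it ran from 89.3 to 101 CPM in sham (median 94.6) and from 93.7 to 104 CPM after SNI (median 100). All 4 groups overlapped, and the highest library of the 24 exceeded the lowest only 1.22 times, the narrowest range of the 7 genes.

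Nr3c2 encodes the mineralocorticoid receptor (chromosome 8, 76899442 to 77245012, plus strand). It ran from 59.9 to 76.2 CPM in Sham Gfp (median 69.8) and from 61.2 to 81.5 CPM in SNI Gfp (median 71.8). In Sham Mef2c it ran from 54.1 to 80.4 CPM (median 72) and in SNI Mef2c from 57.6 to 87.1 CPM (median 80.5). The groups overlapped, and the lowest libraries were Sham Mef2c 4 and SNI Mef2c 1. Reads of the antisense gene Gm10649, whose count was 26.72% of that of Nr3c2, cannot be told apart from Nr3c2 where the genes overlap, because strand was not used in counting.

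Fkbp5 encodes a co-chaperone that joins HSP90 on the receptor and lowers its affinity for hormone, and its own induction closes a feedback loop (chromosome 17, 28399094 to 28517527, minus strand). It ran from 31.1 to 46.4 CPM in Sham Gfp (median 41.4) and from 33 to 56.6 CPM in SNI Gfp (median 41.9). The Sham Mef2c libraries ran from 28.4 to 57.3 CPM (median 36.8) and the SNI Mef2c libraries from 35.8 to 58.1 CPM (median 51.7). The SNI Mef2c median was the highest, yet its lowest library, number 1, lay below the medians of the other groups.

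Sgk1 encodes the serum- and glucocorticoid-regulated kinase, which acts on ion channels and transporters (chromosome 10, 21882184 to 21999903, plus strand). It ran from 54.7 to 66.3 CPM in Sham Gfp (median 60.9) and from 53.9 to 77.6 CPM in SNI Gfp (median 58.5). In Sham Mef2c it ran from 48.6 to 80.7 CPM (median 59.5) and in SNI Mef2c from 52.8 to 77 CPM (median 65.1). The groups overlapped, the range of Sham Gfp lying inside that of each other group, and 3.7% of the variance of log2 CPM lay between them.

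Tsc22d3 encodes GILZ, the glucocorticoid-induced leucine zipper, a mediator of anti-inflammatory action (chromosome X, 140539528 to 140600659, minus strand). It ran from 22.3 to 50.1 CPM in Sham Gfp (median 29.1) and from 30 to 56 CPM in SNI Gfp (median 39.9). In Sham Mef2c it ran from 32.5 to 57.6 CPM (median 36.2), and in SNI Mef2c it kept to 26 to 35.2 CPM (median 31.7). SNI Mef2c was the tightest group, and its range overlapped all the others. Of the 7 genes Tsc22d3 had the largest share of variance between groups, 25.5%. Some variance lies between groups by chance alone, and the share for all genes was not computed.

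Zbtb16 encodes PLZF, a zinc finger transcription factor that glucocorticoids induce in many tissues (chromosome 9, 48654297 to 48836222, minus strand). It ran from 8.12 to 12.3 CPM in Sham Gfp (median 9.9) and from 5.78 to 15.8 CPM in SNI Gfp (median 13). In Sham Mef2c it ran from 10.1 to 17.8 CPM (median 12.2) and in SNI Mef2c from 6.72 to 19.1 CPM (median 8.11). The highest library of the 24, SNI Mef2c 1, exceeded the lowest, SNI Gfp 2, 3.3 times, the widest range of the 7 genes.

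Pdk4 encodes a kinase that inhibits pyruvate dehydrogenase and so spares glucose (chromosome 6, 5483351 to 5496309, minus strand). It ran from 8.95 to 15 CPM in Sham Gfp (median 13.1) and from 8.68 to 14 CPM in SNI Gfp (median 10.9). In Sham Mef2c it ran from 9.7 to 11.5 CPM (median 11.1) and in SNI Mef2c from 11.5 to 12.8 CPM (median 12.5). Every SNI Mef2c library lay above every Sham Mef2c library, though the nearest libraries of the 2 groups both round to 11.5 CPM. Among all genes tested, 1.1% had groups that did not overlap in this comparison in either direction and 0.4% in this one. No other member had groups that did not overlap in a comparison of 2 groups, where the share of genes was 0.303% for SNI against sham with Gfp, 5.97% for the vectors in sham (0.758% higher with Mef2c) and 0.556% for the vectors after SNI.

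**Figure D1:**
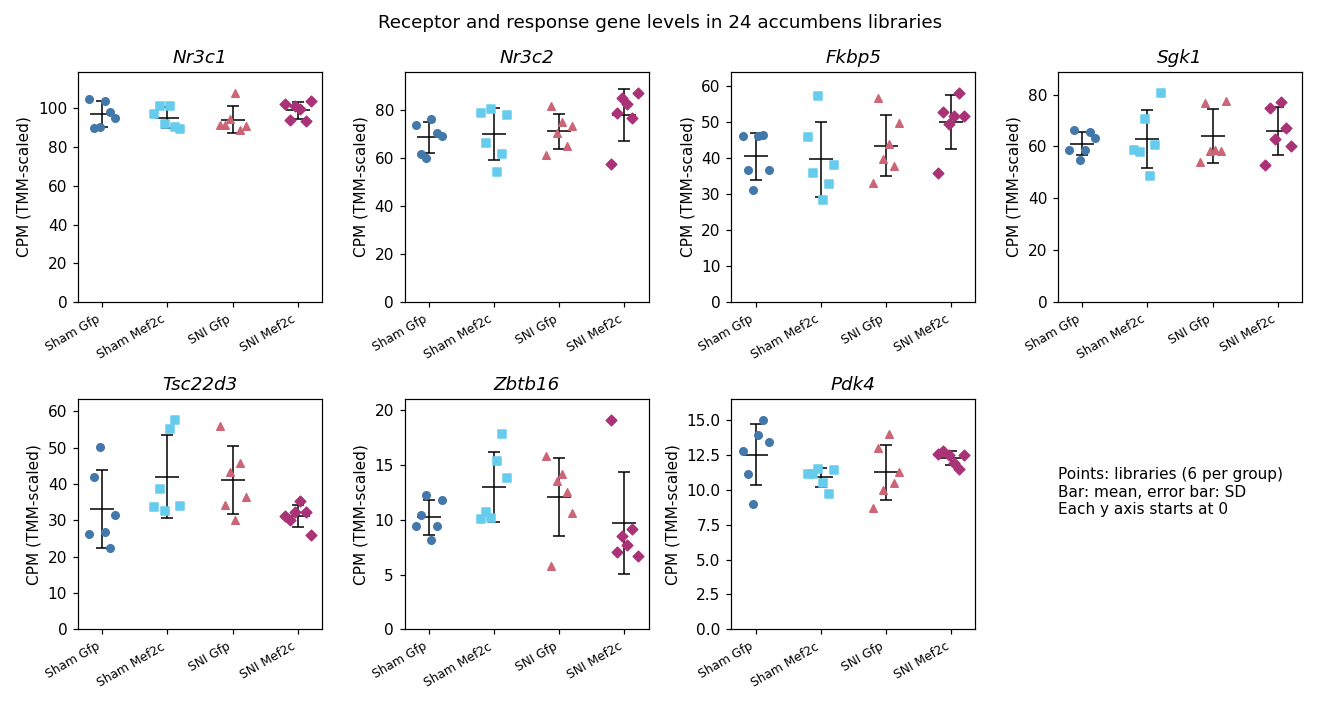
TMM-scaled CPM (y axes, each from 0) of the 7 genes in the 4 groups (x axes), with 1 point per library and the mean and SD of 6 libraries. The groups overlap for each gene except Pdk4 in SNI Mef2c (11.5 to 12.8 CPM) against Sham Mef2c (9.7 to 11.5 CPM).

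SNI was first compared with sham in mice with the Gfp vector, which asks what nerve injury does without viral Mef2c. The edgeR quasi-likelihood test called 0 of the 7 genes (0% of all 23738 genes). Of the 7, 0 had an unadjusted p under 0.05, against 12.3% of all genes. DESeq2 also called 0 of the 7, against 2.33% of all genes. Tsc22d3 had the largest difference, a log2 fold change of 0.31 (SE 0.19, 95% interval -0.09 to 0.7, adjusted p = 0.582). For Nr3c1 the interval ran from -0.15 to 0.06, and for Fkbp5 from -0.22 to 0.43 around 0.10. The median log2 fold change of the 7 was 0.06, beside 0.01 for all genes. With limma-voom and quality weights, 2 of the 7 passed (11.8% of all genes), Tsc22d3 with 0.54 (adjusted p = 0.043) and Pdk4 with -0.28 (adjusted p = 0.0446).

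In mice with the Mef2c vector the same injury was compared, and edgeR called 0 of the 7 genes (0% of all genes). An unadjusted p under 0.05 was reached by 2 of the 7, against 16.1% of all genes. Fkbp5 had a log2 fold change of 0.33 (SE 0.16, 95% interval 0 to 0.66, adjusted p = 0.304), and Tsc22d3 had -0.43 (SE 0.19, interval -0.82 to -0.03, adjusted p = 0.278). Zbtb16 had -0.42 (SE 0.24, adjusted p = 0.399) and Pdk4 0.18 (SE 0.11, adjusted p = 0.415). DESeq2 called 0 of the 7 (0.0548% of all genes), and limma-voom with quality weights called 0 (0% of all genes). The median of the 7 was 0.07, beside 0 for all genes. The mean of the 11 medium spiny neuron markers was 8 log2 CPM in SNI Mef2c (SD 0.74) and 7.68 log2 CPM in Sham Mef2c (SD 0.48), and 0 of the 11 passed. With that mean as a covariate in edgeR, the value of Fkbp5 was 0.20 (SE 0.07, adjusted p = 0.237), that of Tsc22d3 -0.22 (SE 0.15) and that of Zbtb16 -0.28 (SE 0.13). Each SE was smaller than without it, and not every value shrank with it. For SNI against sham with Gfp, Tsc22d3 had 0.37 (SE 0.14, adjusted p = 0.186), against 0.31 without it. In the interaction described below, Tsc22d3 had -0.59 (SE 0.21) and Zbtb16 -0.54 (SE 0.19), both with adjusted p = 0.279. Without it these were -0.73 and -0.65. The covariate does not hold the septum or cortical markers. For SNI against sham with Mef2c, the median log2 fold change was -0.52 for 6 septum and 1.22 for 10 cortical markers. EdgeR called 0 of either, and 3 of 6 and 4 of 10 had an unadjusted p under 0.05. In the interaction the medians were -0.88 and 1.09, with 4 of 6 and 0 of 10. A septum covariate was not tested.

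The vectors were compared next in sham mice, which asks what viral Mef2c does without injury, with the reservation that Mef2c itself overlapped between these groups. This comparison had the most calls over the whole table, 9.41% of all genes, but edgeR called 0 of the 7. None had an unadjusted p under 0.05 (0 of 7, against 21.2% of all genes), and DESeq2 called 0 (10.9% of all genes). Tsc22d3 and Zbtb16 had the same log2 fold change of 0.34 (SE 0.19 and 0.24, adjusted p = 0.325 and 0.454), and Pdk4 had -0.20 (SE 0.11, adjusted p = 0.286). The receptors had values near 0, with intervals from -0.13 to 0.08 for Nr3c1 and from -0.19 to 0.24 for Nr3c2. The median of the 7 was 0.03, beside 0.02 for all genes. With limma-voom and quality weights, 2 of the 7 passed (18.7% of all genes), Tsc22d3 with 0.49 (adjusted p = 0.0423) and Pdk4 with -0.28 (adjusted p = 0.0295).

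After SNI the vectors differed in Mef2c in every library, and the question was whether the response genes followed. EdgeR called 0 of the 7 (0.00421% of all genes), with 0 of 7 at an unadjusted p under 0.05 (14.3% of all genes). DESeq2 called 0 (1.85% of all genes) and limma-voom 0 (0.0548% of all genes). Tsc22d3 had the largest difference at -0.39 (SE 0.19, 95% interval -0.79 to 0, adjusted p = 0.353), and Fkbp5 had 0.20 (SE 0.16, adjusted p = 0.574). The median of the 7 was 0.07, beside 0 for all genes.

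The interaction asks whether injury acts differently with the 2 vectors, and edgeR called 0 of the 7 (0% of all genes). An unadjusted p under 0.05 was reached by 2 of the 7, against 14.9% of all genes. Tsc22d3 had an interaction of -0.73 on the log2 scale (SE 0.27, interval -1.29 to -0.17, adjusted p = 0.313), made of the 0.31 with Gfp and the -0.43 with Mef2c given before. Pdk4 had 0.33 (SE 0.15, interval 0.02 to 0.65, adjusted p = 0.327). Zbtb16 had -0.65 (SE 0.34, adjusted p = 0.362) and Sgk1 0.01 (SE 0.16, adjusted p = 0.991). DESeq2 called 0 (0.00421% of all genes). With limma-voom and quality weights 3 of the 7 passed (17.4% of all genes), namely Tsc22d3 with -0.91 (adjusted p = 0.0168), Zbtb16 with -0.89 (adjusted p = 0.0302) and Pdk4 with 0.46 (adjusted p = 0.0201). The comparisons share groups, so their values are not independent of each other.

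**Figure D2:**
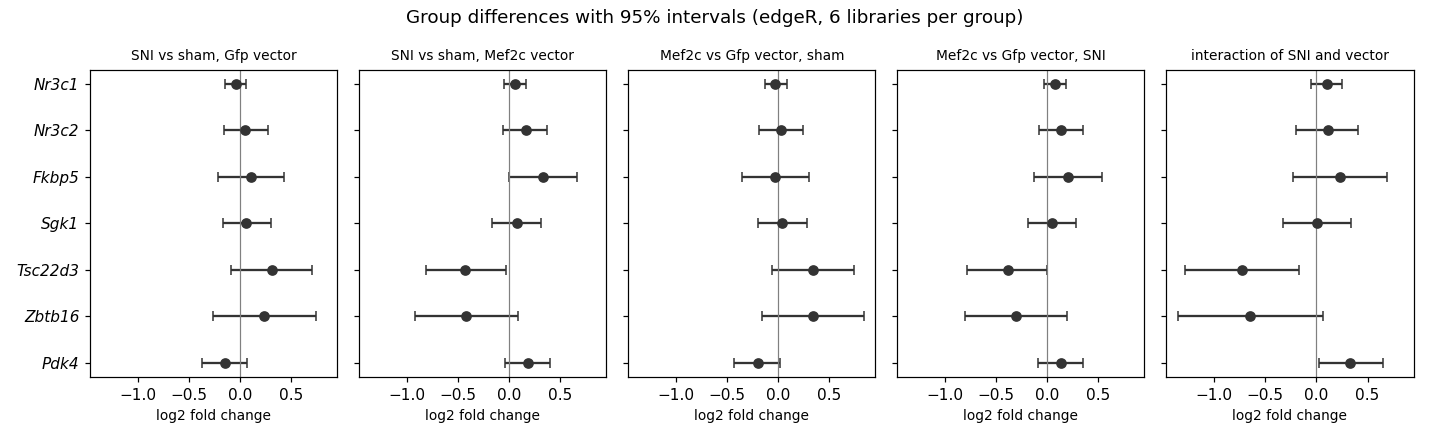
Log2 fold change (x axes) with its 95% interval from edgeR for the 7 genes (y axis) in the 5 comparisons, 6 libraries a group. The intervals of Nr3c1 are the narrowest, and in the interaction those of Tsc22d3 (-1.29 to -0.17) and Pdk4 (0.02 to 0.65) leave out 0. For SNI against sham with Mef2c, that of Tsc22d3 (-0.82 to -0.03) also does, and that of Fkbp5 has a lower limit that rounds to 0.

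Within groups, many pairs of the 7 genes varied in step or in opposite directions from library to library. Group means were removed from log2 CPM, and all 21 pairs were correlated over the 24 libraries, with 100000 permutations of libraries within groups and Benjamini-Hochberg adjustment over the 21. Of the 21 pairs, 14 had an adjusted p under 0.05. Nr3c2 and Fkbp5 rose and fell together (Pearson's r = 0.86, Spearman's rho = 0.83, permutation p = 1e-05, the smallest the permutations can give, adjusted p = 0.000105, and r = 0.81 without the 2 libraries farthest from the median). Tsc22d3 ran against Pdk4 (r = -0.87, rho = -0.84, permutation p = 1e-05, adjusted p = 0.000105, r = -0.82 without 2 libraries). Fkbp5 ran against Zbtb16 (r = -0.78, rho = -0.80, permutation p = 2e-05, adjusted p = 0.00014, r = -0.75 without 2 libraries) and against Tsc22d3 (r = -0.73, rho = -0.73, permutation p = 0.0002, adjusted p = 0.0007, r = -0.81 without 2 libraries). Among the known targets of the receptor, then, some pairs varied together and others in opposite directions. Nr3c1 had weaker relations, with r = 0.04 to Fkbp5 (rho = 0.10, permutation p = 0.857, adjusted p = 0.9, r = -0.05 without 2 libraries). With Pdk4 it had r = 0.51 (rho = 0.46, permutation p = 0.0317, adjusted p = 0.0492, r = 0.37 without 2 libraries), and its relation to Sgk1, r = -0.45, also passed.

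The level of striatal neuron markers moved with several of these genes. Over the 24 libraries, 105 relations of the 7 genes with 14 marker lists and the total count were computed, in the same way. Nr3c2 followed the mean of the 11 medium spiny neuron markers (r = 0.94, rho = 0.91, permutation p = 1e-05, adjusted p = 0.00035, r = 0.93 without 2 libraries), with r between 0.93 and 0.98 in the 4 groups. Fkbp5 followed it too (r = 0.90, rho = 0.94, permutation p = 1e-05, adjusted p = 0.00035, r = 0.94 without 2 libraries), with r between 0.95 and 0.99 in the groups. Zbtb16 ran the other way (r = -0.84, rho = -0.83, permutation p = 2e-05, adjusted p = 0.000525, r = -0.73 without 2 libraries), with r between -0.96 and -0.77. The marker mean took 88.2% of the within-group variance of Nr3c2, 81.2% of that of Fkbp5 and 70.3% of that of Zbtb16. In bulk tissue, fewer cells of a type and less RNA per cell cannot be told apart.

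The relation was looser for the other genes. Tsc22d3 had r = -0.66 (rho = -0.77, permutation p = 0.00012, adjusted p = 0.0021), with r between -0.97 and -0.86 in 3 groups and -0.12 in SNI Mef2c. Without SNI Mef2c library 1, which had the lowest marker mean of all (6.5 log2 CPM), and Sham Gfp library 3, r was -0.89. Sgk1 had r = 0.61 (rho = 0.52, permutation p = 0.00238, adjusted p = 0.0178), and 0.50 without those 2 libraries, a set for which no adjusted p was computed. Pdk4 had r = 0.51 (rho = 0.58, permutation p = 0.00135, adjusted p = 0.0109, r = 0.68 without the 2), with -0.24 in SNI Mef2c against 0.71 to 0.90 in the other groups. Nr3c1 had r = 0.09 (rho = 0.21, permutation p = 0.671, adjusted p = 0.831, r = 0.14 without the 2), with signs that differed between groups.

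**Figure D3:**
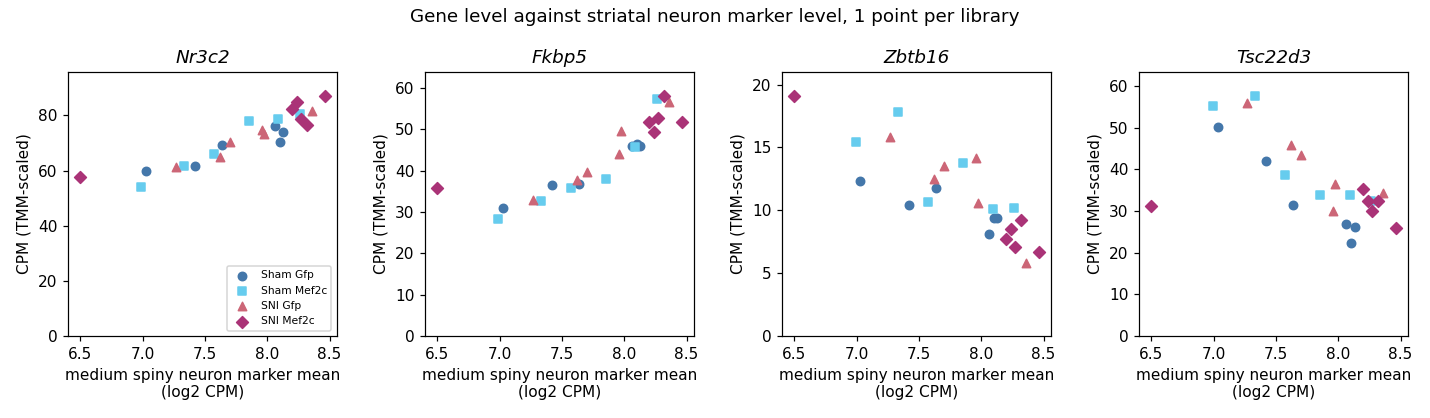
CPM of Nr3c2, Fkbp5, Zbtb16 and Tsc22d3 (y axes, from 0) against the mean log2 CPM of 11 medium spiny neuron markers (x axes), 1 point per library, coloured by group. Nr3c2 and Fkbp5 rise with the markers (r = 0.94 and 0.90 within groups), Zbtb16 falls, and SNI Mef2c library 1 stands alone at 6.5.

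Other lists also moved with these genes. The mean of the 6 septum markers was related to Fkbp5 (r = -0.81, rho = -0.77, permutation p = 1e-05, adjusted p = 0.00035, r = -0.76 without 2 libraries). It was related in the other direction to Tsc22d3 (r = 0.74, rho = 0.74, permutation p = 0.00071, adjusted p = 0.00678, r = 0.64 without 2 libraries), with r = -0.80 in SNI Mef2c. The septum mean was also related to Nr3c2 (r = -0.69, adjusted permutation p = 0.0021), Sgk1 (r = -0.56) and Zbtb16 (r = 0.51, adjusted p = 0.0422 for both). The mean of the 10 oligodendrocyte markers was related to Tsc22d3 (r = 0.73, rho = 0.68, permutation p = 0.00023, adjusted p = 0.00302, r = 0.62 without 2 libraries). It was related in the other direction to Fkbp5 (r = -0.71, adjusted permutation p = 0.00302) and Nr3c2 (r = -0.68, adjusted p = 0.00653), with the same sign in all 4 groups. Interferon response, microglia and lymphocyte lists had no relation to any of the 7 past the threshold, the smallest adjusted p among them being 0.21 for Sgk1 with microglia (r = 0.44, rho = 0.44, permutation p = 0.056, r = 0.07 without 2 libraries).

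When the medium spiny neuron marker mean was removed along with the group means, 2 of the 21 pairs had an adjusted p under 0.05. Tsc22d3 with Pdk4 had r = -0.82 (permutation p = 2e-05, adjusted p = 0.00042). Other lists, which were not removed, were also related to these 2 genes in opposite directions. Pdk4 was related to the septum mean (r = -0.71, rho = -0.71, permutation p = 0.0008, adjusted p = 0.007, r = -0.57 without 2 libraries) and to the oligodendrocyte mean (r = -0.57, rho = -0.52, permutation p = 0.00289, adjusted p = 0.0202, r = -0.47 without 2 libraries), where Tsc22d3 had 0.74 and 0.73. With the cortical mean Pdk4 had r = 0.58 (rho = 0.61, permutation p = 0.00424, adjusted p = 0.0278, r = 0.49 without 2 libraries). Tsc22d3 had r = -0.62 with it (rho = -0.68, permutation p = 0.00068, adjusted p = 0.00678, r = -0.66 without 2 libraries). In SNI Mef2c the signs with the septum and cortical means were opposite to these. There Pdk4 had r = 0.60 and -0.37, and Tsc22d3 had -0.80 and 0.05. The part of these lists in the pair was not tested. The other pair was Nr3c1 and Sgk1 (r = -0.64, permutation p = 0.00158, adjusted p = 0.0166), which had r = -0.45 before removal (rho = -0.39, permutation p = 0.0328, adjusted p = 0.0492, r = -0.48 without 2 libraries). Nr3c2 and Fkbp5 went from r = 0.86 to 0.12 (permutation p = 0.629, adjusted p = 0.8).

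**Figure D4:**
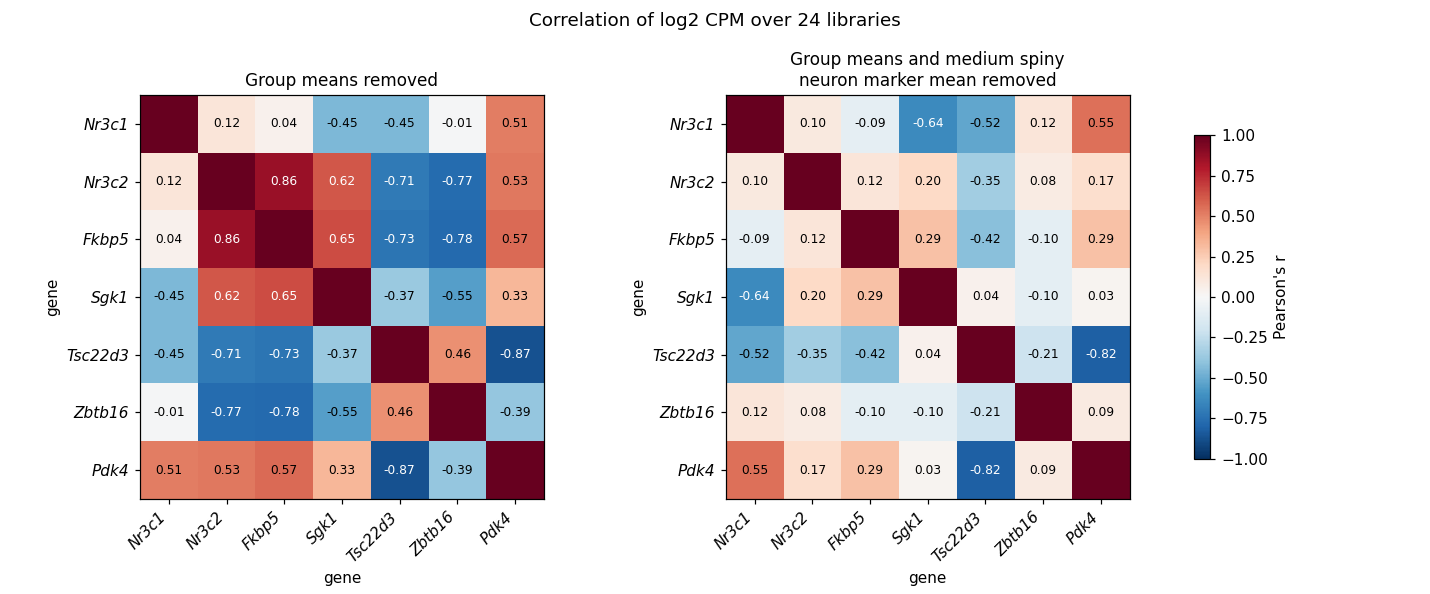
Pearson's r (colour and printed value) of each pair of the 7 genes over 24 libraries, after removing group means (left) and also the medium spiny neuron marker mean (right). Nr3c2 with Fkbp5 goes from 0.86 to 0.12, while Tsc22d3 with Pdk4 goes from -0.87 to -0.82.

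The genes most like each of the 7 were sought by Pearson's r of group-centred log2 CPM among 15021 genes over the same 24 libraries, as a description. Fkbp5 was closest to Rgs9 (r = 0.963), which is itself one of the medium spiny neuron markers, then Lyst (0.960) and Gmpr (0.958). Nr3c2 was closest to Chst15 (0.964), whose span overlaps Fgfr2, then Kcnab1 (0.958) and Kctd1 (0.956). Tsc22d3 was closest to Eml2 and Daam1 (0.968 each) and Prune2 (0.966). Zbtb16 was closest to Raph1 (0.911), Pls3 (0.890) and Anxa7 (0.889). Pdk4 was closest to Dkk3 (0.906), Nr2e1 (0.896) and Celsr1 (0.891). Sgk1 was closest to Zfp58 (0.864), whose span overlaps Gm26965, then Galnt18 (0.863) and Dnmbp (0.854). The closest genes to Nr3c1 had the lowest values, with Cdh6 (0.783), Serinc2 (0.781) and Gtf2h5 (0.743). These libraries share tissue content and depth, which such values also carry.

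The rest of the pathway was read from lists of genes around the receptor. EdgeR called genes of these lists in 1 of the 5 comparisons, the vectors in sham. There 1.48% of all genes were called higher and 7.93% lower in Sham Mef2c, while each other comparison had at most 0.00421% of all genes called. Of 32 other glucocorticoid-induced genes, 6 fell and 0 rose, and the median log2 fold change was 0.02, the same as for all genes. Txnip, an inhibitor of thioredoxin, ranged from 10.4 to 19.6 CPM in Sham Gfp and from 6.63 to 9.73 CPM in Sham Mef2c (means 14.4 and 7.51, SD 3.38 and 1.16, n = 6 each), which do not overlap. Its log2 fold change was -0.94 (SE 0.18, edgeR adjusted p = 0.001). Zfp36, whose protein triggers decay of cytokine mRNAs, averaged 7.42 CPM (SD 1.76) and 2.95 CPM (SD 0.477), a change of -1.33 (SE 0.26, adjusted p = 0.00103). The transcription factor genes Cebpd and Cebpb had -1.73 (SE 0.34) and -1.03 (SE 0.22). All 4 overlap a gene with more counts (Gm15441, Gm44710, Spidr and Tmem189), so their reads are uncertain.

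The other 2 that fell, chosen for mention after their values were seen, were Nfkbia, the inhibitor of NF-kappaB (-0.65, SE 0.14, adjusted p = 0.00241), and the cell cycle inhibitor Cdkn1a (-0.71, SE 0.21, adjusted p = 0.0364). Cdkn1a no longer passed without any 1 of Sham Gfp libraries 1, 2, 5 and 6 or Sham Mef2c libraries 2, 4 and 5, with adjusted p between 0.0525 and 0.139. Nor did it pass in 5 of 13 other fits: no filter on low counts (0.0585), the compared groups only (0.123), the replicate block (0.0982), the cortical covariate (0.0951), and Sham Mef2c libraries 2 and 5 left out (0.203). Per1, a clock gene and a direct receptor target, was not called and is named outside the selection rule given below. It ranged from 66.7 to 111 CPM in the Sham Gfp libraries and from 81.7 to 104 CPM in those labelled Sham Mef2c (means 93.2 and 94.8).

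Of 11 measured genes that glucocorticoids repress, 9 fell in Sham Mef2c and 0 rose, with a median log2 fold change of -2.61. Il1a, a cytokine, ranged from 2.27 to 4.79 CPM in Sham Gfp but only from 0.867 to 1.05 CPM in Sham Mef2c. Its change was -1.72 (SE 0.21, edgeR adjusted p = 0.000161), and its span overlaps Gm14023. The chemokine genes Ccl5, Ccl2 and Cxcl10 averaged 16.7 CPM (SD 12.3), 2.37 CPM (SD 1.68) and 14.9 CPM (SD 9.72) in Sham Gfp. In Sham Mef2c they averaged 0.152 CPM (SD 0.181), 0.0527 CPM (SD 0.0369) and 0.11 CPM (SD 0.138), with some libraries at 0. Of these, Ccl2 overlaps Gm17268 and Cxcl10 overlaps Art3. The call of Nos2, among the 9, was lost when Sham Gfp library 1, Sham Gfp library 6 or Sham Mef2c library 1 was left out, with adjusted p between 0.0516 and 0.0719. It was also lost in 3 of 12 other fits, with the compared groups only (0.058), the replicate block (0.0651) and the cortical covariate (0.0607).

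Immune markers moved the same way as the 9 repressed and 6 induced genes that fell, while the median of the induced list was 0.02, as for all genes. The mean of 14 interferon response genes was 4.87 log2 CPM in Sham Gfp (3.54 to 5.62) and 1.16 log2 CPM in Sham Mef2c (0.97 to 1.49), and 14 of 14 fell. Microglia markers averaged 6.48 log2 CPM (6.24 to 6.75) and 5.56 log2 CPM (5.4 to 6), with 5 of 7 lower, and 7 of 8 lymphocyte markers fell. The interferon mean was 2.57 log2 CPM in SNI Gfp (1.14 to 4.77) and 1.19 log2 CPM in SNI Mef2c (0.9 to 1.66). The part of what these markers reflect in the values of those genes was not tested.

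Other lists around the receptor held few calls in sham. Of 9 measured genes of ligand supply and competing receptors, 1 fell, the transporter gene Abcb1b, which exports steroids (-0.69, SE 0.17, edgeR adjusted p = 0.00824). Of 14 coregulators, 1 rose, the methyltransferase gene Carm1 (0.13, SE 0.03, adjusted p = 0.00154), whose means were 77.5 and 84.7 CPM (SD 1.61 and 2.38, n = 6 each). Among 12 relatives and partners of Sgk1 and Pdk4, Pdk2, a further pyruvate dehydrogenase kinase, rose (0.23, SE 0.06, adjusted p = 0.00795). Cpt1a, which brings fatty acids into mitochondria, fell (-0.27, SE 0.07, adjusted p = 0.00992). Without Sham Mef2c libraries 2 and 5, whose Mef2c stood at 125 and 123 CPM, 5 induced and 9 repressed genes were called lower, Nos2 among them with an adjusted p that rounds to 0.05. Cdkn1a, Pdk2 and Cpt1a no longer passed (adjusted p = 0.203, 0.0646 and 0.0535). Of 16 chaperones, 4 measured genes of the corticotropin-releasing hormone system and 11 clock output genes, edgeR called 0, and 3, 1 and 1 had an unadjusted p under 0.05, against 21.2% of all genes. The same was reached by 3 of the 9 genes of ligand supply and competing receptors, 6 of the 14 coregulators and 4 of the 12 relatives and partners.

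In the other 4 comparisons edgeR called 0 genes of these lists, where at most 0.00421% of all genes were called. For SNI against sham with Gfp, an unadjusted p under 0.05 in either direction was reached by 9 of the 11 repressed genes and 12 of the 32 induced ones, against 12.3% of all genes. The smallest adjusted p among the induced was 0.106, of Sult1a1 (0.52, SE 0.15). Induced genes went both ways: the mean of Sult1a1 was 5.02 CPM in Sham Gfp and 7.19 CPM in SNI Gfp, that of Nfkbia 19.4 and 14.3 CPM. For SNI against sham with Mef2c, the numbers at an unadjusted p under 0.05, in either direction as in the comparisons that follow, were 0 of 11 and 5 of 32, against 16.1% of all genes. Klf9, a transcription factor induced by glucocorticoids, had 0.40 (SE 0.15, adjusted p = 0.229). After SNI the vectors gave 8 of 11 and 4 of 32, against 14.3% of all genes, with Txnip at -0.54 (SE 0.18, adjusted p = 0.192). In the interaction the numbers were 3 of 11 and 9 of 32, against 14.9% of all genes, with Gjb6, an astrocyte connexin gene, at -1.05 (SE 0.31, adjusted p = 0.313). Across these 4 comparisons, in the order given, the median log2 fold change of the repressed genes was -1.25, -0.11, -1.25 and 1.11. For the induced genes it was 0.07, 0.05, -0.08 and -0.02. For the 14 interferon response genes it was -1.65, 0.06, -2.14 and 1.85, and 14, 0, 14 and 14 of them had an unadjusted p under 0.05.

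**Figure D5:**
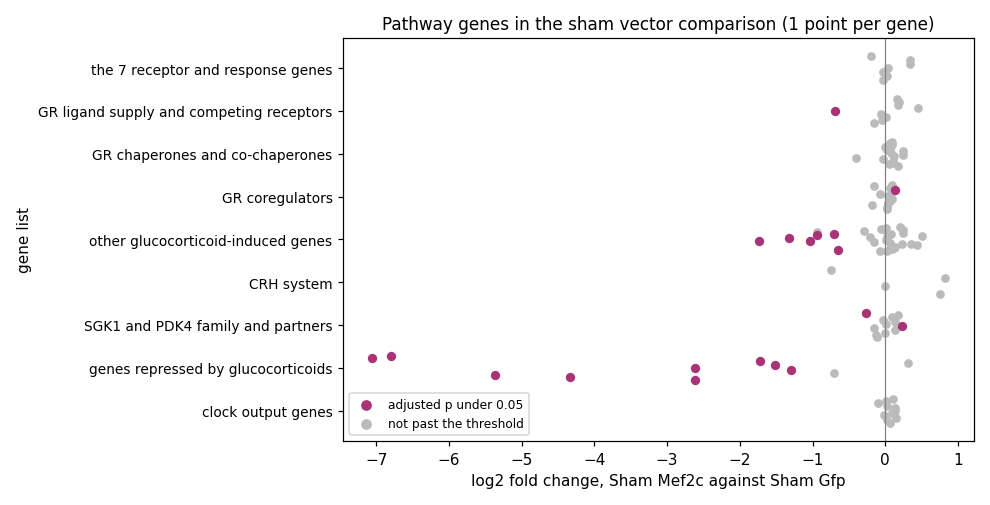
Log2 fold change of Sham Mef2c against Sham Gfp (x axis) for the 7 genes and 8 pathway lists (y axis), 1 point per gene, dark where the edgeR adjusted p was under 0.05. The 7 genes lie between -0.20 and 0.34, while 9 of 11 repressed genes and 6 of 32 other induced genes were lower.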

How the data were processed

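The authors deposited raw counts per gene and FPKM values for the 24 libraries, and per the submitters' processing notes counts came from featureCounts on mm10. For the aligner, the annotation and the counter's version, the labels give nothing. The deposited FPKM values were used only to find gene lengths: they equalled the count over the library total and the whole gene span for 42625 of 42625 genes compared. Where a gene lies inside another, the outer gene had at least the inner count in every library, for 877 of 877 same-strand pairs and 1300 of 1300 opposite-strand pairs. Counting thus took in introns and ignored strand. Of 55401 identifiers, 54349 matched a GENCODE M21 symbol with their version and 55141 without it.

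Counts were tested with edgeR 4.0.16 in R 4.3.3 (filterByExpr, TMM, robust quasi-likelihood, 1 coefficient per group, 20 residual degrees of freedom). Tests are two-sided, with Benjamini-Hochberg adjustment over 23738 genes in each comparison and a threshold of 0.05. Levels are CPM with TMM scaling, and list means are log2 CPM with a prior count of 2. No pair of libraries in a group was a copy (smallest chi-square per degree of freedom 3.22 over 60 pairs, genes with at least 20 counts). Correlations used scipy 1.17.1 and numpy 2.4.6 in Python 3.11.15. Scripts were tested on simulated data.

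Alternatives were DESeq2 1.42.0, limma-voom (limma 3.58.1) with quality weights, other scalings and filters, the compared groups alone, the replicate number as a block, cortical and oligodendrocyte marker covariates, and each library left out. The medium spiny neuron covariate and the left-out pairs of libraries were added after seeing the data. The 7 genes are named in every comparison. From each pathway list up to 4 genes with the smallest p among those past the threshold are named, or up to 2 where none passed. Nfkbia, Cdkn1a, Nos2 and Per1 are named beyond this rule. The 3 most similar genes of each member are named, with at least 1 CPM on average, leaving out predicted genes and genes whose span overlaps the member. The members and lists were chosen with earlier results of these data known.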

Additional observations from a re-analysis of the deposited data

Results flagged for a closer look

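Each of the 7 genes was checked in each group of 6 libraries for a lowest or highest library that stood apart, 28 checks in all, of which chance alone would flag about 1 in 20. A gap to the nearest library, as a share of the group's range, beyond Dixon's 95% critical value was found 3 times. Nr3c1 stood at 108 CPM in SNI Gfp library 4 (gap 0.714 of the range), a library with high cortical markers (5.83 log2 CPM). In SNI Mef2c library 1, Nr3c2 stood low at 57.6 CPM (gap 0.647) and Zbtb16 stood high at 19.1 CPM (gap 0.8). That library had the lowest medium spiny neuron marker mean (6.5 log2 CPM) and the highest cortical marker mean (6.06 log2 CPM), and their part in these values was not tested.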

How the results depend on the processing

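Across the 7 genes, the 5 comparisons and all alternatives, 1281 of 1288 log2 fold changes stayed on the same side of the threshold, and the other 7 passed it, all with limma-voom and quality weights. That test called 2 of the 7 genes for SNI against sham with Gfp, 2 for the vectors in sham and 3 for the interaction, and the cause was not tested. The sign differed in 38 values, none past the threshold in either fit and none with a main value beyond 0.20. Leaving out any 1 library gave 0 of the 7 genes called in every comparison, as did leaving out SNI Mef2c 1 with SNI Gfp 4, or Sham Mef2c 2 with 5. With a replicate block the count was also 0 in every comparison. Libraries with the same replicate number were not generally alike: of 36 such pairs, 9 deviated together with r over 0.1 (median -0.02, from -0.52 to 0.34). Of 24 libraries, 1 correlated best with its own number. Such likeness cannot show whether the numbers mark a pairing in the design. The 14 correlated pairs became 12 to 16 when 1 library was left out, 13 with RLE or library size scaling, 11 with Spearman's rho, 15 without SNI Mef2c 1 and SNI Gfp 4, and 2 with the medium spiny neuron marker mean removed. Zbtb16 and Pdk4 had the fewest counts, 8521 and 8953 over all libraries.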
